A study of Mus musculus with 6 samples.

Results

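The iron and carbonic anhydrase genes Trf, Tfrc, Fth1 and Car2 were examined across the 6 arrays of the series by taking every probe linked to these gene symbols. All 4 genes were measured, through 5 probes, among 6656 genes that could be named on the arrays. The expression of whole optic nerve was measured in LIF knockout mice (LIF-/-, CD1 background), which lack the cytokine leukemia inhibitory factor, and in wild-type CD1 mice, at postnatal days 10, 14 and 35. All nerves were labelled male and untreated. Each of the 6 groups of genotype by age was 1 array of 1 pool, made from 10 nerves at day 10, 8 at day 14 and 4 at day 35, and day 35 was called adult in the labels. No group had a second pool, so a difference between genotypes at a single age is given as a value with no test.

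The optic nerve carries the axons of retinal ganglion cells, which are myelinated by oligodendrocytes during the first postnatal weeks. Oligodendrocytes are the cells of the brain that stain most strongly for iron, which serves as a cofactor of enzymes that make myelin lipids and cholesterol. Transferrin (Trf) binds and carries iron, the transferrin receptor (Tfrc) takes it into cells, ferritin heavy chain (Fth1) oxidises and stores it, and carbonic anhydrase 2 (Car2) interconverts carbon dioxide and bicarbonate in the cytosol. Trf, Fth1 and Car2 are known products of mature rodent oligodendrocytes, though not of these cells alone. Tfrc is also carried by brain endothelium and developing red cells. In whole nerve, fewer cells of a type and less RNA per cell cannot be told apart.

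Promoter windows of RefSeq (build GRCm38.p6, 250 bases before to 50 after an annotated start) were matched for Tfrc and Fth1, 2 of the 4 members. A window of each is shown, since the storage chain rose with age whereas the uptake receptor did not pass the test. Capitals mark matches to CCAAT (the CCAAT box), TATAA (the TATA box) or ACGTG (the core of the hypoxia response element), each searched on both strands.
Tfrc, chr16:32608646-32608945, plus strand: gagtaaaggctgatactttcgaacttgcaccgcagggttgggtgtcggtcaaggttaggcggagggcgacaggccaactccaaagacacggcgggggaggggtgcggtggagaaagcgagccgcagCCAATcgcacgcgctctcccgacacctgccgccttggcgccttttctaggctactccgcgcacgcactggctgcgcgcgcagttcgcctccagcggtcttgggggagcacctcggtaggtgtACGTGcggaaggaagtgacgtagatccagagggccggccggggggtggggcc
Fth1, chr19:9982396-9982695, plus strand: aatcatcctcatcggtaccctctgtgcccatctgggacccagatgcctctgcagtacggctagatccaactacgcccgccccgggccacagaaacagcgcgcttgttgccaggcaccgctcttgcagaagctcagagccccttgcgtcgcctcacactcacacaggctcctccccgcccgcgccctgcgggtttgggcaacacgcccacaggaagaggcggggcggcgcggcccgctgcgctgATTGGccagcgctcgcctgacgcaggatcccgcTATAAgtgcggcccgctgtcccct
The Tfrc window held CCAAT with its first base at -124 and ACGTG at -2, counted from the start. The Fth1 window held ATTGG, which is CCAAT on the minus strand, at -7 and TATAA at 27. Each gene has another annotated window, not shown here. That of Tfrc held TATAA at -172 and ACGTG at -228, and that of Fth1 held TATAA on the minus strand at -123. The Tfrc windows overlap, and the ACGTG at -228 is the same bases as the ACGTG at -2 of the window shown. Both genes thus had a TATAA match. These words are common, as 37.4% of the 32851 windows in the table held CCAAT, 24.9% held TATAA and 19.6% held ACGTG. The STAT word TTCNNNGAA, present in 8.3% of all windows, had no match in the 4 windows of these genes. A match describes the letters only.

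The arrays detected 12222 to 13292 probes each and had median raw signals of 51.8 to 61.9. Signals were background-corrected, quantile normalized and put on the log2 scale, and 13827 probes detected on at least 2 arrays were tested. The arrays of days 10 and 14 lay on 1 slide and those of day 35 on another, on which the 18S control read 1576 to 1655 against 3061 to 3812, so that age and slide cannot be told apart for day 35. Every genotype difference lay within a slide. The Lif probe does not check the labels, since the sources used here do not say whether it lies within the targeted sequence, and it read 5.13 to 5.71 in knockout and 5.04 to 5.48 in wild-type nerves on the log2 scale. Of 13 mature oligodendrocyte markers 10 were measured, and all 10 were above background on all 6 arrays. Their summed raw signal in knockout nerves lay between 67624 and 78634, against 79839 to 92729 in wild-type nerves. These sums were not normalized between arrays, so the gap between the ranges may hold differences between whole arrays. Among the normalized markers of day 10, 8 were lower in the knockout and 1 higher. Those of day 14 were split into 4 lower and 4 higher, and those of day 35 into 5 lower and 4 higher. The Y-linked genes went against the male label on some arrays, with Eif2s3y not above background in the knockout pool of day 35 and the wild-type pool of day 10, and Kdm5d not above background in the knockout pool of day 35.

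Trf, on chromosome 9 (probe ILMN_2485323), had the widest range of the 4 genes, 4.88 log2 units. Its normalized log2 signal in the knockout pools was 8.59, 12.06 and 13.44 at days 10, 14 and 35, against 11.38, 11.81 and 13.47 in the wild-type pools. The raw signals were 495.2, 3739 and 11007 in the knockout pools, against 2845, 3753 and 11707 in the wild-type pools. The knockout array of day 10 stood below the other 5, while both genotypes were close at days 14 and 35. No 2 ages overlapped, but the share of all probes with no such overlap was not counted. The difference of knockout minus wild type was -2.79 at day 10, a 6.92-fold lower level, and only 5 of the 13827 probes had a lower value. It was 0.25 at day 14, but -0.003 without normalization between arrays, and -0.03 at day 35. Under 5 other ways of processing the arrays, the day 10 difference lay between -2.70 and -2.60.

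In the knockout the Trf log2 signal was higher by 3.47 at day 14 than at day 10 and by a further 1.38 at day 35, which made the day 35 level 28.9-fold that of day 10. In the wild type the same steps were 0.43 and 1.66, and the day 35 level was 4.26-fold that of day 10. Whether the genotype difference at day 10 departed from that of both later ages was tested with a term in limma, which was -2.90 ± 0.29 (SE) for Trf (adjusted p = 0.886, unadjusted p = 0.00048). No probe passed in that comparison (0% of 13827, 734 at an unadjusted p under 0.05, with 1 residual degree of freedom), so the larger early step of Trf in the knockout is given as a value. The genotype difference averaged over the 3 ages was -0.86 ± 0.59 (limma adjusted p = 0.989), a comparison in which 0% of probes passed and 520 had an unadjusted p under 0.05. With the day 10 arrays left out it was 0.11.

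**Figure D1:**
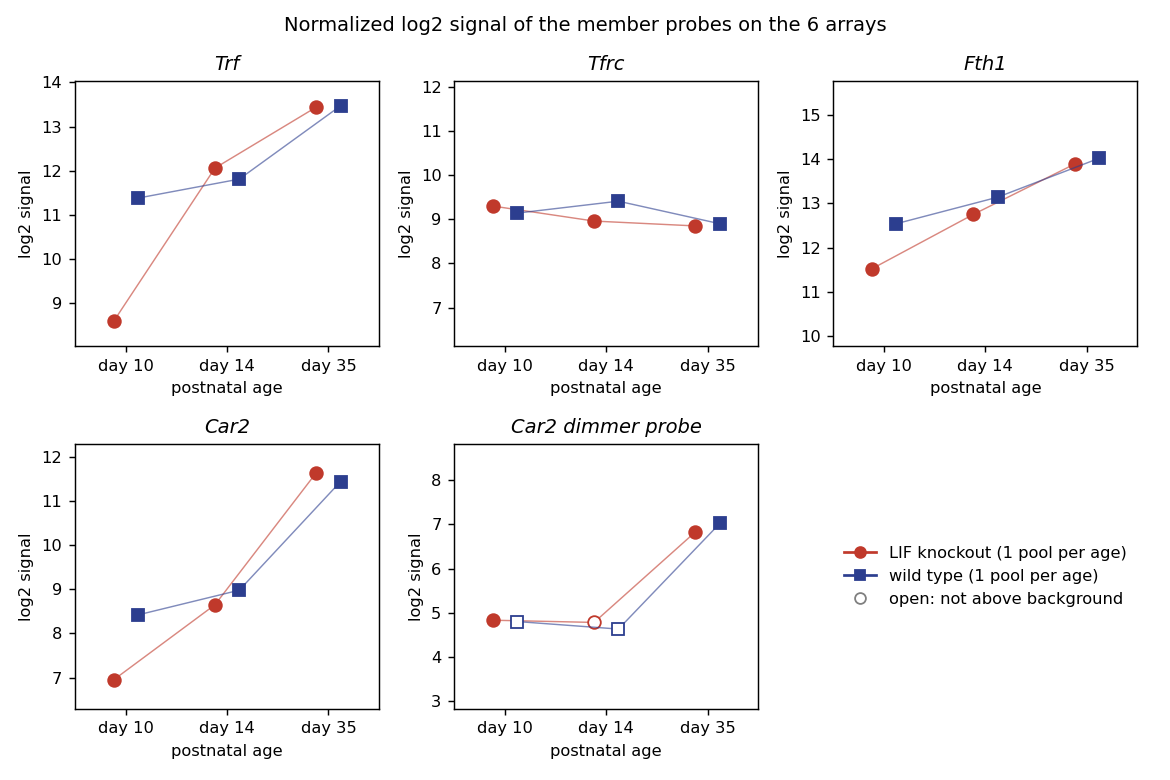
Normalized log2 signal of the 5 probes of Trf, Tfrc, Fth1 and Car2 at postnatal days 10, 14 and 35, with circles for LIF knockout and squares for wild type, each point 1 pool and open symbols not above background; the axis of every panel covers the same number of log2 units. Trf at day 10 stood at 8.59 in knockout nerves, against 11.38 in wild-type nerves, and the signals of Trf, Fth1 and Car2 were highest at day 35 in both genotypes.

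Car2, on chromosome 3 (probes ILMN_2606746 and ILMN_2603504), had the second largest genotype difference of the 4 at day 10. On the log2 scale, its brighter probe read 6.95, 8.65 and 11.64 in the knockout pools of days 10, 14 and 35, against 8.42, 8.98 and 11.44 in the wild-type pools. The raw signals were 174.1, 378.5 and 3175 in the knockout pools, against 383.2, 548.6 and 2697 in the wild-type pools. The knockout array of day 10 was the lowest of the 6, and both day 35 arrays stood far above the rest. No 2 ages overlapped, a trait that was not counted over all probes. Knockout minus wild type was -1.47 at day 10, a 2.77-fold lower level with 81 probes lower, then -0.32 at day 14 and 0.20 at day 35. The term for day 10 against the later ages was -1.41 ± 0.35 (limma adjusted p = 0.886).

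A dimmer Car2 probe gave signals near background at the early ages. Its raw signal was 58.7, 48.3 and 134.2 in the knockout pools of days 10, 14 and 35, against 57.4, 52.2 and 146.8 in the wild-type pools. It was not well above background in the wild type of day 10 and on both arrays of day 14, so that it says nothing about the day 10 difference that the brighter probe showed. At day 35 its knockout minus wild type was -0.19, opposite in sign to the 0.20 of the brighter probe.

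Fth1, the ferritin heavy chain gene on chromosome 19 (probe ILMN_2744442), was among the brightest probes of the adult nerve. Its log2 signal was 11.52, 12.75 and 13.89 in the knockout pools of days 10, 14 and 35, against 12.54, 13.14 and 14.02 in the wild-type pools. The knockout was the lower array at each of the 3 ages, by 1.02, 0.39 and 0.12. The ages did not overlap, a trait that was not counted over all probes. At day 10 this was a 2.03-fold lower level, and 225 probes had a lower value. Averaged over the ages the genotype difference was -0.51 ± 0.20 (limma adjusted p = 0.989, unadjusted p = 0.0468). The term for day 10 was -0.76 ± 0.29 (limma adjusted p = 0.886). On the day 35 arrays Fth1 ranked 12th in knockout and 6th in wild-type nerves by brightness, where quantile normalization sets values by rank, and mouse Fth1 has processed pseudogenes whose share in the probe's signal was not tested.

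Tfrc, the receptor gene on chromosome 16 (probe ILMN_2619848), had the narrowest range, with all 6 arrays within 0.56 log2 units. Its log2 signal was 9.30, 8.96 and 8.85 in the knockout pools of days 10, 14 and 35, against 9.14, 9.41 and 8.90 in the wild-type pools. The knockout was thus the higher array at day 10 and the lower at day 14, both day 35 arrays were below the other 4, and days 10 and 14 overlapped. Knockout minus wild type was 0.16, -0.46 and -0.05 at days 10, 14 and 35, and without normalization between arrays the day 14 value was -0.70. No gap between neighbouring arrays in the order of Tfrc levels exceeded its residual SD of 0.20. The genotype difference over the ages was -0.12 ± 0.16 (limma adjusted p = 0.994), and the day 10 term was 0.41 ± 0.32 (limma adjusted p = 0.895).

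Beside Tfrc, the markers of the other cells that carry it differed between the pools. The summed raw signal of 9 endothelial genes was 6910, 3853 and 3765 in the knockout pools of days 10, 14 and 35, against 4252, 5780 and 3798 in the wild-type pools. That of 4 erythroid genes was 25047, 3156 and 3325 in the knockout pools, against 12053, 5849 and 10654 in the wild-type pools. Both sums were higher in the knockout at day 10 and lower at day 14, as Tfrc was. At day 35, where Tfrc differed by -0.05, the erythroid sum was lower in the knockout and the endothelial sums were close. These sums were not normalized between arrays, unlike the Tfrc differences. At day 14, however, 2 of the 4 erythroid genes were higher in the knockout and 2 lower, with a median difference of -0.25. Most of the erythroid sum there was Hba-a1, at 2489 in knockout nerves, against 5148 in wild-type nerves. The part of both cell types in the Tfrc values was not tested.

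Of the 4 genes, Trf, Car2 and Fth1 lay more than 1 log2 unit lower in the knockout at day 10, where 1.69% of all tested probes did. With median scaling, and with no normalization between arrays, the count was 2 of 4, as the Fth1 difference was then as small as -0.91. No member differed by more than 1 unit in either direction at day 14 or day 35, where 1.14% and 2.55% of probes did. The 10 mature oligodendrocyte markers had a median difference of -0.80 at day 10, 0.00 at day 14 and -0.02 at day 35. At day 10 none of these 10 markers was as low as Trf, 3 were lower than Car2 and 4 lower than Fth1, while all 10 lay below Tfrc. Some markers stood near the top of the scale, where quantile normalization sets values by rank, and could hardly show a difference. Among them was Mbp, with raw signals of 18693 in knockout and 18481 in wild-type nerves of day 10 and a difference of 0.00 at each age. This limits the placing against the markers. Gjb1, the connexin of oligodendrocyte gap junctions, was the lowest marker at -2.28. All named genes had a median difference of 0.01, 0.02 and -0.03 at days 10, 14 and 35. Markers of other cells also set the knockout pool of day 10 apart from the wild-type pool of that age. The summed raw signal of the 2 fat markers was 2850 in the knockout pool, against 228.6 in the wild-type pool, with the brown fat gene Ucp1 higher by 4.90 log2 units. The erythroid sum was 25047 in the knockout pool, against 12053 in the wild-type pool, and the endothelial sum 6910, against 4252. The sum of 8 astrocyte genes was 36672 in the knockout pool, against 31219. Of these 8 genes, however, 4 were higher in the knockout and 4 lower, with a median difference of 0.07. The sum of 7 retina genes was 740.5 in the knockout pool, against 478.9 in the wild-type pool, where 3 of them were not above background. That of 7 skeletal muscle genes was lower, at 4322 against 4964, and that of 9 microglia and macrophage genes was close, at 2530 against 2575. The Y-linked genes Eif2s3y and Kdm5d differed by 3.51 and -0.72. The part of these tissues, of the make-up of the pools, or of fewer mature oligodendrocytes, in the Trf, Car2 and Fth1 differences was not tested.

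**Figure D2:**
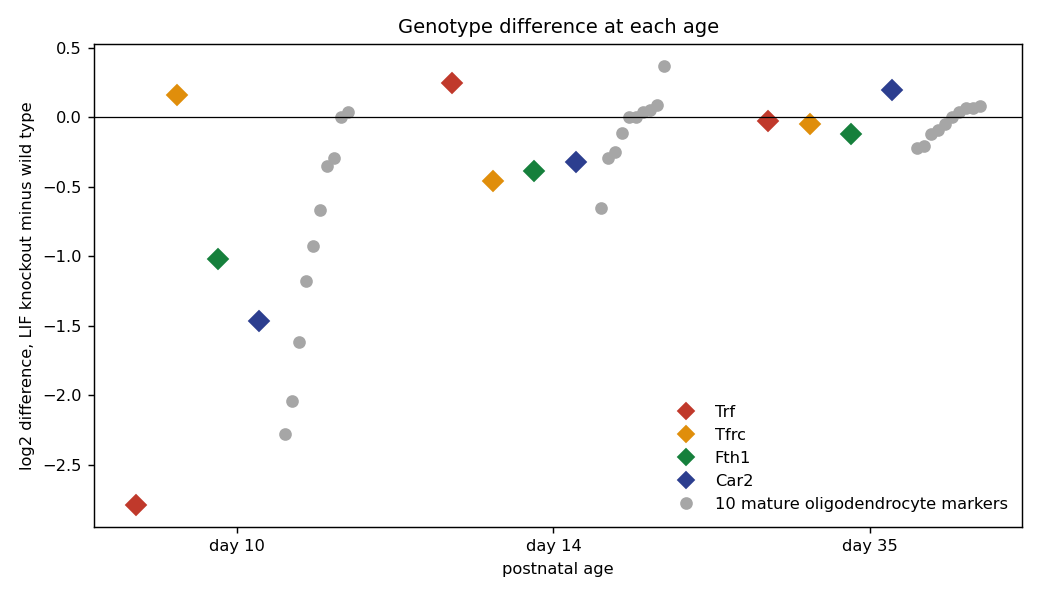
Difference of LIF knockout minus wild type in normalized log2 signal at each age for Trf, Tfrc, Fth1 and Car2 (diamonds, brightest probe) and for 10 mature oligodendrocyte markers (grey circles, sorted), each from 1 array per genotype. At day 10 Trf lay at -2.79, below all 10 markers, and Tfrc at 0.16, above them, while at day 35 the 4 genes lay between -0.12 and 0.20.

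Age was compared with both genotypes as the 2 arrays of an age, in a model with a genotype term. Trf, Fth1 and Car2 rose between day 10 and day 35, and Tfrc did not pass the test. Day 35 minus day 10 was 3.85 ± 0.39 for Car2 (14.5-fold, limma adjusted p = 0.00943), 3.47 ± 0.72 for Trf (11.1-fold, adjusted p = 0.0289) and 1.92 ± 0.25 for Fth1 (3.80-fold, adjusted p = 0.0118). Only 6 probes had a larger value than Car2 and 10 a larger one than Trf. Tfrc stood at -0.34 ± 0.20 (limma adjusted p = 0.262). In this comparison 20.8% of all tested probes passed and 10.6% passed as higher at day 35. Of the calls 51.1% were higher at day 35, but 19.7% with the deposited table and 28.4% without normalization between arrays, where the median of all probes was near -0.24.

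These calls were lost when either array of day 10 was left out. Such fits estimate the scatter from fewer arrays, and they also lost the calls of day 35 minus day 14, which compares no day 10 level. The part of the scatter estimate in this loss was not tested. The values that follow are of day 35 minus day 10. Without the knockout array of day 10 no probe passed (limma, 3588 at an unadjusted p under 0.05), and Trf stood at 2.02, Car2 at 3.15 and Fth1 at 1.54 (adjusted p = 0.103 for each). Without the wild-type array of day 10 no probe passed either (4127 at an unadjusted p under 0.05), with 4.92, 4.56 and 2.31 for the same genes (adjusted p = 0.0562). Trf was also not called without the knockout array of day 35 (2.85, limma adjusted p = 0.110).

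The later step was large for Car2. Day 35 minus day 14 was 2.72 ± 0.39 for Car2 (6.60-fold, limma adjusted p = 0.0215) and 1.01 ± 0.25 for Fth1 (2.01-fold, adjusted p = 0.0495). Trf at 1.52 ± 0.72 (adjusted p = 0.189) and Tfrc at -0.31 ± 0.20 (adjusted p = 0.316) did not pass. Here 14.9% of probes passed and 7.74% passed as higher at day 35. Of these calls 52.1% were higher at day 35, against 41.5% with the deposited table. The dimmer Car2 probe was not well above background on the day 14 arrays, so its difference is a bound against the higher of its own signal and the lowest signal of detected probes there. The probe was at least 4.59-fold higher at day 35 than at day 14, but at least 2.86-fold without background correction and at least 2.57-fold with an offset of 50. The bound was not tested. The limma test was of the measured difference of 2.22 (adjusted p = 0.0173), which includes the day 14 signals near background. Its call held in 2 of the 6 fits that left out an array. The Fth1 call was lost under each of the 6 fits that left out an array (0.72 to 1.30, adjusted p = 0.0553 to 0.237) and under 4 of 7 other settings. The Car2 call held in 1 of those 6 fits, with values of 2.17 to 3.27 (adjusted p = 0.0152 to 0.0976), and 0 probes passed without the wild-type array of day 14 or either array of day 10 (limma, 3804 and 4850 at an unadjusted p under 0.05). Without the knockout array of day 14 only 12 probes passed, without that of day 35 only 76, and without the wild-type array of day 35 there were 946.

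Between days 10 and 14, which shared a slide, no member passed. Day 14 minus day 10 was 1.95 ± 0.72 for Trf (limma adjusted p = 0.378), 1.13 ± 0.39 for Car2 (adjusted p = 0.358), 0.92 ± 0.25 for Fth1 (adjusted p = 0.315) and -0.03 ± 0.20 for Tfrc (adjusted p = 0.965). No probe of the array did (0%), while 1719 had an unadjusted p under 0.05. The Trf value held a step of 3.47 in knockout nerves, against 0.43 in wild-type nerves. For Car2 the step was 1.70 in knockout nerves, against 0.56 in wild-type nerves, and for Fth1 it was 1.23 in knockout nerves, against 0.60 in wild-type nerves.

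The order of the 6 arrays was similar for Trf, Fth1 and Car2. Each began with the knockout at day 10 and then the wild type at day 10, held the 4 arrays of days 10 and 14 below those of day 35, and had a gap above its residual SD between the day 10 arrays. For Trf the next 3 arrays, from the wild type of day 10 to the knockout of day 14, were separated by less than its SD of 0.72. Over the 6 arrays, which share their pools, the Pearson correlation was 0.968 between Trf and Fth1, 0.922 between Trf and Car2 and 0.970 between Fth1 and Car2. Tfrc correlated with them between -0.723 and -0.620.

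The genes with the most similar profiles were ranked by the root mean square difference of log2 signals, each centred on its mean over the 6 arrays, among 5915 named genes. Nearest to Trf were B3galt5, a galactosyltransferase, at 0.334, Apod, a lipid-binding apolipoprotein, at 0.358, and Evi2a at 0.359, then Gjb1 and the axoglial adhesion protein gene Cntn2. At day 10 these 5 genes differed between knockout and wild type by -1.89 to -3.72. Since the ranking used the same arrays, this likeness to Trf follows from how the genes were picked. Nearest to Fth1 were Trak2, an adaptor of kinesin transport, at 0.132, and Mal, a proteolipid of compact myelin, at 0.167, then Dnajc6, Ndrg1 and the glycine transporter gene Slc6a9. Nearest to Car2 was Anln, which encodes the actin and septin binding protein anillin, at 0.229, while the second, Bcl2l1, lay at 0.512 and Qdpr, Gpnmb and Evi2a followed. Anln was higher at day 35 than at day 10 by 3.98 log2 units, beside 3.85 for Car2. That likeness too follows from how the neighbours were picked. When Pearson correlation ranked the genes instead, 3 of these 15 places held the same gene, namely Apod and Cntn2 for Trf and Qdpr for Car2. Tfrc spanned less than 1 log2 unit and was given no neighbours.

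**Figure D3:**
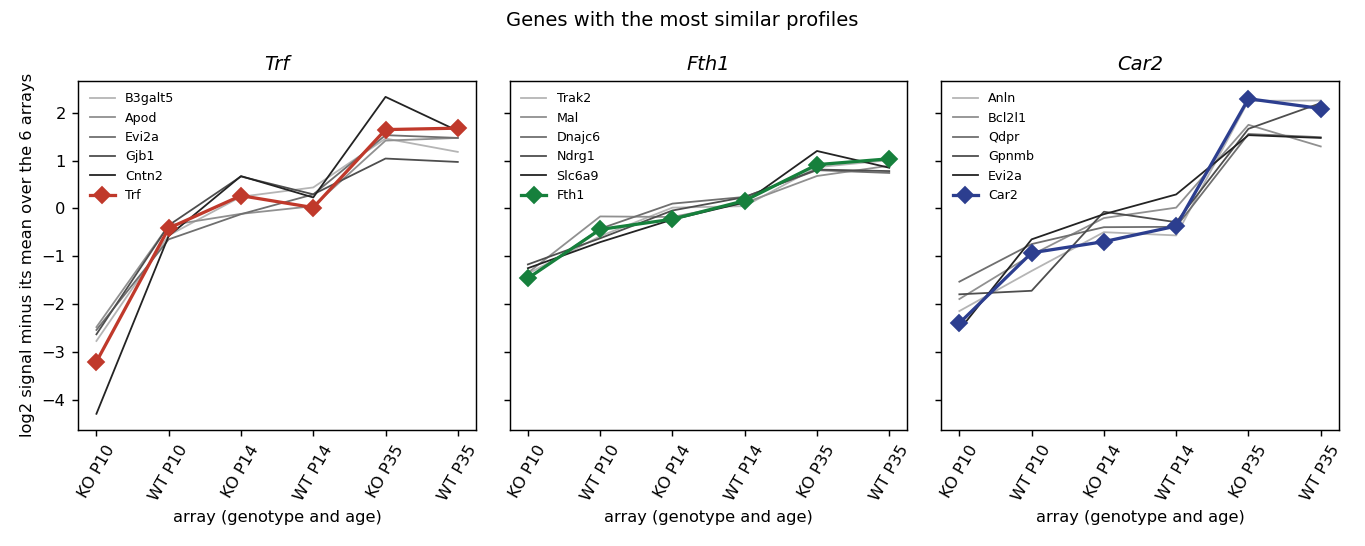
Log2 signal minus its mean over the 6 arrays, by array (KO, LIF knockout; WT, wild type; P, postnatal day), for Trf, Fth1 and Car2 (coloured diamonds) and the 5 genes nearest to each in root mean square difference (grey lines). Anln followed Car2 at a distance of 0.229 and Trak2 followed Fth1 at 0.132, while the nearest gene to Trf, B3galt5, lay at 0.334.

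Of 103 genes listed for iron handling and pH control 48 were measured, the 4 members among them. Between day 10 and day 35, 10 of the 48 were called higher and 5 lower, and among the 44 that are no members 7 were higher and 5 lower. Over all 6616 named genes tested, 703 were higher and 849 lower. Leaving out any array of day 10 or day 35 lowered the 15 calls in these lists to between 0 and 9, with 0 without either array of day 10.

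Of 31 genes of iron uptake and transport 17 were measured. At day 10 their median difference was 0.14, with 10 above and 7 below 0, and Trf at -2.79 was the only 1 of the 17 below -1. Slc40a1, which encodes the iron exporter ferroportin, differed in the other direction at day 10. Its log2 signal was 9.78, 8.50 and 7.80 in the knockout pools of days 10, 14 and 35, against 8.58, 8.89 and 8.52 in the wild-type pools. The knockout array was thus the higher of its age at day 10 and the lower at days 14 and 35. Knockout minus wild type was 1.20, -0.39 and -0.72, and day 35 minus day 10 was -1.02 (limma adjusted p = 0.164). Slc11a2, the divalent metal transporter, had -0.52, -0.03 and 0.02 and was named after its values were seen. Ltf, the iron-binding lactotransferrin, was not above background in the wild type of day 35, with raw signals of 94.7 in knockout nerves and 46.8 in wild-type nerves. Its level there was at least 2.42-fold higher in the knockout, and at least 1.65-fold with an offset of 50.

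With age, 2 genes of iron uptake and transport were called higher and 1 lower between day 10 and day 35, around a median of -0.01. Those called higher were Trf and the ferroxidase ceruloplasmin (Cp), at 0.84 (limma adjusted p = 0.0266). Lrp1, a receptor that also clears heme bound to hemopexin, fell by 0.63 (limma adjusted p = 0.0456). Lrp1 was named after its values were seen. Heph, the ferroxidase hephaestin, stood at 0.46 (limma adjusted p = 0.133), and was also named after its values were seen.

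Of 19 genes of iron storage and its control 9 were measured, and 8 of the 9 were lower in the knockout at day 10, with a median of -0.41, as were 3220 of the 6616 named genes tested, with a median of 0.01. Fth1 and Fbxl5, the iron-sensing ubiquitin ligase subunit that degrades an iron regulatory protein, were lowest at -1.02 and -0.81. Ftl1, the light chain that forms ferritin together with Fth1, is set beside it. Its log2 signal was 13.65, 13.63 and 13.42 in the knockout pools of days 10, 14 and 35, against 13.76, 13.51 and 13.26 in the wild-type pools, and knockout minus wild type was -0.12, 0.11 and 0.16. Day 35 minus day 10 was -0.37 (limma adjusted p = 0.164) for Ftl1, beside 1.92 for Fth1. Ftl1 was near the top of the scale already at day 10, with raw signals of 15012 in knockout and 14244 in wild-type nerves. A rise of Ftl1 could thus hardly be seen. Of this list Fth1, Fbxl5 (1.30, limma adjusted p = 0.0267) and the growth factor gene Bmp6 (0.92, adjusted p = 0.0276) were called higher by day 35 and none was called lower. The iron regulatory protein gene Ireb2 lay between -0.21 and 0.09 in knockout minus wild type at the 3 ages, and Ftl1, Bmp6 and Ireb2 were named after their values were seen.

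Of 14 lipid enzymes that use iron 8 were measured, and 7 of the 8 were lower in the knockout at day 10, with a median of -0.41, beside the same 3220 of 6616 named genes. The lowest was the sterol demethylase gene Cyp51 at -1.02, with 8.42 in knockout nerves, against 9.44 in wild-type nerves. It was followed by the fatty acid hydroxylase gene Fa2h at -0.84 and the sterol oxidase gene Msmo1 at -0.70. At days 14 and 35 the medians were -0.02 and 0.00. By day 35, 4 of the 8 were called higher and none was called lower. The 4 were Fa2h at 1.31 (limma adjusted p = 0.0211), Cyp51 at 1.25 (adjusted p = 0.0369), Msmo1 at 0.93 (adjusted p = 0.0453) and the dihydroceramide desaturase gene Degs1 at 0.75 (adjusted p = 0.0289). Degs1 was named after its values were seen, and the list median was 0.54 against -0.08 for all named genes.

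Of 16 carbonic anhydrases 5 were measured, and Car2 was the only one called higher at day 35. Car3, a muscle and fat isoform, fell by 3.39 between day 10 and day 35 (limma adjusted p = 0.0120). Its raw signal was 671.4, 55.5 and 78.7 in the knockout pools of days 10, 14 and 35, against 439.2, 112 and 59.7 in the wild-type pools, so that both day 10 arrays stood above the rest. The summed signal of 7 skeletal muscle markers, Car3 included, was 4322, 480.0 and 8782 in the knockout pools, against 4964, 1578 and 695.4 in the wild-type pools. That of 2 fat markers was 2850, 92.0 and 85.1 in the knockout pools, against 228.6, 227.6 and 85.9 in the wild-type pools, and the part of either tissue in the Car3 values was not tested. Car13 differed by -1.32 at day 35, with 7.05 in knockout nerves, against 8.37 in wild-type nerves, and by -0.22 and 0.18 at days 10 and 14. Car4, a membrane-bound isoform, and Car11, an isoform without catalytic activity, stood at 0.19 and 0.60 in day 35 minus day 10 (limma adjusted p = 0.504 and 0.0559), and both were named after their values were seen.

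Of 23 genes of bicarbonate, proton and lactate transport 9 were measured, but no lactate transporter was among them. Between day 10 and day 35 none of the 9 was called higher and 3 were called lower, around a median of -0.46. The anion exchanger gene Slc4a1 fell by 1.98 (limma adjusted p = 0.00913). Its relative Slc4a3 fell by 0.84 (limma adjusted p = 0.0267) and Slc4a8, a sodium-driven exchanger, fell by 1.23 (adjusted p = 0.0314). Slc4a3 was named after its values were seen, and Slc4a1 is the red cell band 3 gene and also stands in the erythroid list, whose sums are given beside Tfrc and whose part in this change was not tested. Slc9a9, a sodium proton exchanger of endosomes, differed by 1.12 at day 14 and by -0.20 and -0.01 at days 10 and 35.

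**Figure D4:**
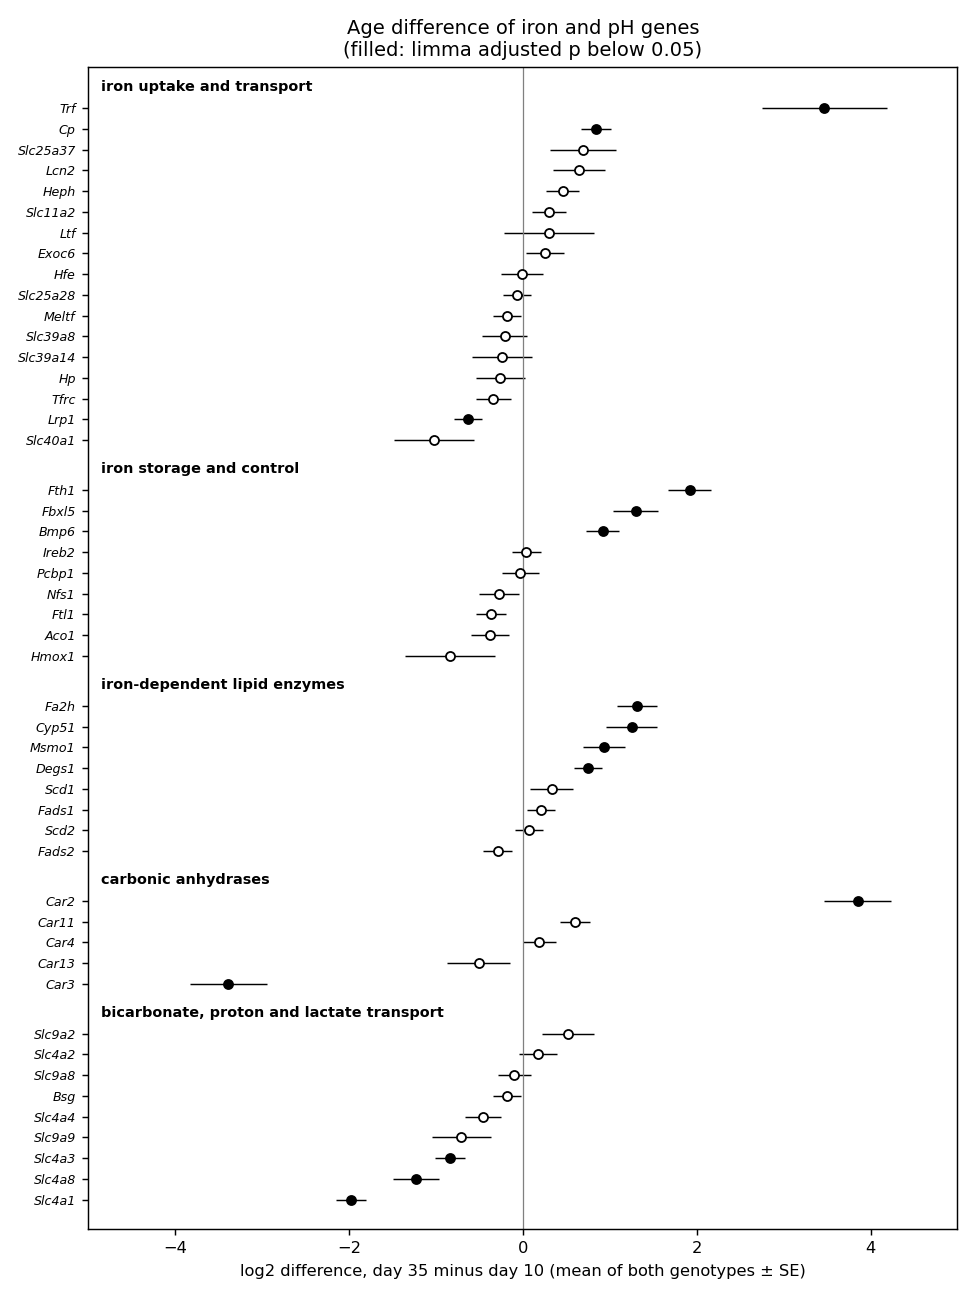
Day 35 minus day 10 in log2 signal for the 48 measured genes of 5 lists, each point the mean of both genotypes with its SE from limma, filled where the adjusted p was below 0.05. Trf and Car2 lay furthest to the right at 3.47 and 3.85, Car3 furthest to the left at -3.39, and Tfrc at -0.34.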

How the data were processed

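RNA of pooled nerves was extracted with TRIzol and 500 ng was amplified with the Illumina TotalPrep kit, per the labels' protocols. Per the file headers, MouseRef-8 BeadChips were exported from BeadStudio 1.5.0.34 without normalization. The deposited per-array files hold a linear mean bead intensity for 24611 rows, of which 5 control rows were left out. The detection score in these deposited files was taken as the complement of a detection p-value. A second deposited table carries these intensities times 1 factor per array and has many blank probes, the reason for which the sources used here do not give.

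Probes were named by matching table values to file rows within 0.05 units. This linked 8935 probes, 8047 of them to 1 symbol, and gene numbers in the design identifiers were equal for 97.0% of 2852. Intensities were corrected with limma 3.58.1 in R 4.3.3 (normexp from detection p-values, offset 16), quantile normalized and taken to log2. Probes with a detection p below 0.05 on at least 2 of 6 arrays were tested two-sided with lmFit and eBayes, with day and genotype as terms (2 residual and 3.68 prior degrees of freedom), and adjusted by Benjamini-Hochberg over 13827 probes at 0.05. The p-values measure the scatter of single pools around this model. The fits were tested on simulated data, and other background, normalization and filter settings, the deposited table and leaving out arrays were tried. A gene in a list was represented by its brightest probe. Genes of the lists could be named where a difference at an age or between ages passed 1 log2 unit, and the 5 nearest profiles of a member were named. The members and lists were chosen with earlier results of these data known.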

Additional observations from a re-analysis of the deposited data

Results flagged for a closer look

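Hmox1, the heme-degrading enzyme heme oxygenase 1 of the iron storage and control list, differed between the genotypes in opposite directions at both later ages. At day 14 its log2 signal was 7.31 in knockout nerves, against 6.06 in wild-type nerves, a difference of 1.25. At day 35 it was 5.65 in knockout nerves, against 6.70 in wild-type nerves, a difference of -1.05. At day 10 the difference was -0.41. The change of direction rests on 1 array per genotype and age and was not tested. The summed raw signal of 9 microglia and macrophage genes was 2530, 2821 and 2384 in the knockout pools of days 10, 14 and 35, against 2575, 1970 and 3428 in the wild-type pools, and its part in the Hmox1 values was not tested.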

How the results depend on the processing

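The labels carry no replicate numbers, so no replicate block could be fitted, but day is a term of the fit and the genotype difference over the ages therefore compares the 2 genotypes within each of the 3 ages. Over all probes tested, the count of calls for the genotype difference was 0 and 0 to 1 with an age left out, and that for day 14 minus day 10 was 0 and 0 to 7 with an array left out. That for day 35 minus day 14 was 2055, and 1180 with the deposited table (fewer probes tested), 1079 without the filter on detection (more probes tested), 1064 without normalization between arrays and 0 to 946 with an array left out. That for day 35 minus day 10 was 2875, and 1906 without the filter and 0 to 2420 with an array left out. The day 10 term had 0 calls, and 3 without normalization. The calls in the 5 gene lists numbered 15, and 0 to 13 with an array left out, an alternative chosen after seeing the data. Of the 15 nearest genes 3 stayed with Pearson correlation. Signs turned in differences that were not called. With an age left out, the genotype difference of Trf lay between -1.41 and 0.11 (the higher one without day 10), that of Tfrc between -0.25 and 0.05 (without day 14) and that of the dimmer Car2 probe between -0.09 and 0.09 (without day 35). With an array left out, day 14 minus day 10 of Tfrc lay between -0.29 and 0.22, with 0.17 without the knockout array of day 10 and 0.22 without that of day 14. For the dimmer Car2 probe it lay between -0.23 and 0.01 (without the wild-type array of day 14), and its day 10 term was -0.13 without day 35. The causes were not tested. Among the values of single probes, 84 of 115 kept their direction and side of the threshold with an array or age left out, 24 lost a call and 7 turned. Under the other settings 231 of 238 kept their side of the threshold or, for a difference at a single age, moved by less than the residual SD, while 6 lost a call and 1 moved, the Tfrc difference at day 14. Of these 238 only the Trf difference at day 14 turned, at 0.25 and at -0.003 without normalization between arrays. Without normalization, and with the deposited table, the median of day 35 minus day 10 over all probes moved to -0.24, and no member changed direction. Trf was not called in that comparison without the filter on detection (adjusted p = 0.0993), nor was Car2 in day 35 minus day 14 (adjusted p = 0.0590). With an array left out, the lone array of its age was assumed to vary like the others. The dimmer Car2 probe had a day 35 minus day 10 of 2.11, and as low as 1.32 with another background treatment. Signal over background thus limits this probe. It also limits Ltf at day 35, and age and slide cannot be told apart for day 35. The number of arrays limits all values.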
